A study of Homo sapiens with 18 samples.

Results

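The 40 genes described here encode the proteins that load, activate and follow the replicative helicase at human DNA replication origins. They were taken by symbol: 6 subunits of the origin recognition complex, 4 licensing factors and partners, 6 subunits of the MCM ring, CDC45 with 4 GINS subunits, 6 firing factors, 5 genes of primase and polymerase alpha, and 4 genes each of polymerases delta and epsilon. All 40 were found among the 27781 genes of the deposited count table, and all 40 passed the count filter that left 15678 genes for testing. RNA came from K562, an established human leukemia cell line with a BCR-ABL1 fusion. One group received antisense gapmers against the junction that closes circPCMTD1, the circular RNA made from exons of PCMTD1, and the other received scrambled gapmers. Gapmers are short oligonucleotides that recruit RNase H to the RNA they pair with. Cells of both groups were collected 48 hours after transfection, and each group held 3 biological replicates of 3 technical libraries. The sample descriptions call the oligonucleotides siRNA while the protocols call them gapmers. The labels do not say which number in a library name is the biological one, and the first was taken. They also do not say whether the biological replicates were separate cultures, so the p-values below measure the spread between these samples.

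Replication origins are prepared before they are used. The origin recognition complex (ORC) binds chromatin, CDC6 and CDT1 help it to load a double ring of MCM2 to MCM7, and geminin (GMNN) holds CDT1 back outside the licensing period. The kinase of CDC7 and DBF4, with TICRR, MTBP and DONSON, then brings CDC45 and GINS onto the ring, which makes the helicase called CMG. MCM10 is grouped with these firing factors here. Primase with polymerase alpha lays down the primers, polymerase epsilon extends the leading strand and polymerase delta the lagging strand. Many of these genes are transcribed around the start of S phase under E2F factors. In bulk RNA, fewer cells in S phase and less RNA per cell cannot be told apart.

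The libraries held 19118533 to 29432699 counts, and the 3 libraries of a replicate summed to 63851576 to 76087774 counts. PCMTD1, the host of the targeted circle, had 20.0, 19.8 and 21.9 CPM (counts per 1000000, on library sizes scaled by TMM) in the scrambled samples and 12.6, 11.7 and 12.5 CPM in the knockdown samples. Its log2 fold change was -0.74 (SE 0.052, adjusted p = 7.57e-10, edgeR), in counts that add circular and linear RNA. All 8 erythroid and K562 identity genes checked were above 1 CPM, and 1 of 8 lymphoid genes (CD3D) and 1 of 5 myeloid genes (LYZ) were, although the labels call the cells lymphoblasts. The summed levels of these lists differed between the groups. The lymphoid list, in which MS4A1 was at 0 counts, ran from 4.99 to 5.58 CPM in scrambled and from 7.48 to 7.65 CPM in knockdown samples. The myeloid list ran from 36.4 to 38.3 and from 46.0 to 47.1 CPM, and the erythroid list from 5937 to 6018 and from 6219 to 6494 CPM. CD3D, LYZ and HBG1 made up most of the sums of their lists, with log2 fold changes of 0.46, 0.34 and 0.09. CD14, below 1 CPM, and TAL1 were lower instead, at -0.56 (adjusted p = 0.104, edgeR) and -0.13 (adjusted p = 0.000822, edgeR). The part of these lists in the results was not tested. Knockdown libraries 3_2 and 3_3 stood apart from the other 16 libraries in how the 40 genes deviated by GC content, as described with its values further on. Counts of called genes, and the values of many but not all named genes, are given with and without them. The pair was singled out with values of these data in view, so p-values obtained without it are descriptive.

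Transcript levels of the replication machinery were nearly the same in both groups. The 40 genes summed to 5425, 5392 and 5373 CPM in the scrambled samples and to 5420, 5426 and 5378 CPM in the knockdown samples, ranges that overlap. In edgeR's quasi-likelihood test, with Benjamini-Hochberg adjustment over all 15678 genes and a threshold of 0.05, 4 of the 40 genes rose in knockdown cells: POLD4, MTBP, PRIM2 and GINS1. None of the 40 fell by this test. Of all genes tested, 11.1% rose and 7.49% fell. Without adjustment, 8 members were higher and 3 lower at p below 0.05, beside 2665 and 2223 of the 15678 genes. DESeq2 called 2 members higher and 0 lower, beside 8.9% and 7.18% of all genes. With knockdown libraries 3_2 and 3_3 left out, 8 members were raised and 6 lowered, beside 16.5% and 15.5% of all genes. Without knockdown replicate 3 these were 7 and 6, beside 15.6% and 14.3%. With a correction for GC content they were 8 and 4, beside 14.9% and 16.9%. The median log2 fold change was 0.0032 over the 40 genes and 0.0022 over all genes, with 21 members above 0 and 19 below. The median size of the change, without its sign, was 0.031 for the members and 0.081 for all genes on the log2 scale. Their median SE was 0.033, against 0.048 over all genes.

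The estimates were precise enough to bound most members closely. For 39 of the 40 genes the 95% interval of the fold change lay wholly inside a 1.2-fold change either way. The exception was POLD4, whose interval ran from 1.07-fold to 1.24-fold. The same held for 60.4% of all genes tested and for 94.3% of the 8370 genes whose mean level was at least that of the lowest member, MTBP. The 7 members whose 3 knockdown samples all lay above the 3 scrambled ones were CDC45, GINS1, MTBP, PRIM1, POLD2, POLD3 and POLD4, beside 18.1% of all genes. The 3 whose knockdown samples all lay below were CDC6, MCMBP and MCM3, beside 16.5% of all genes.

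**Figure D1:**
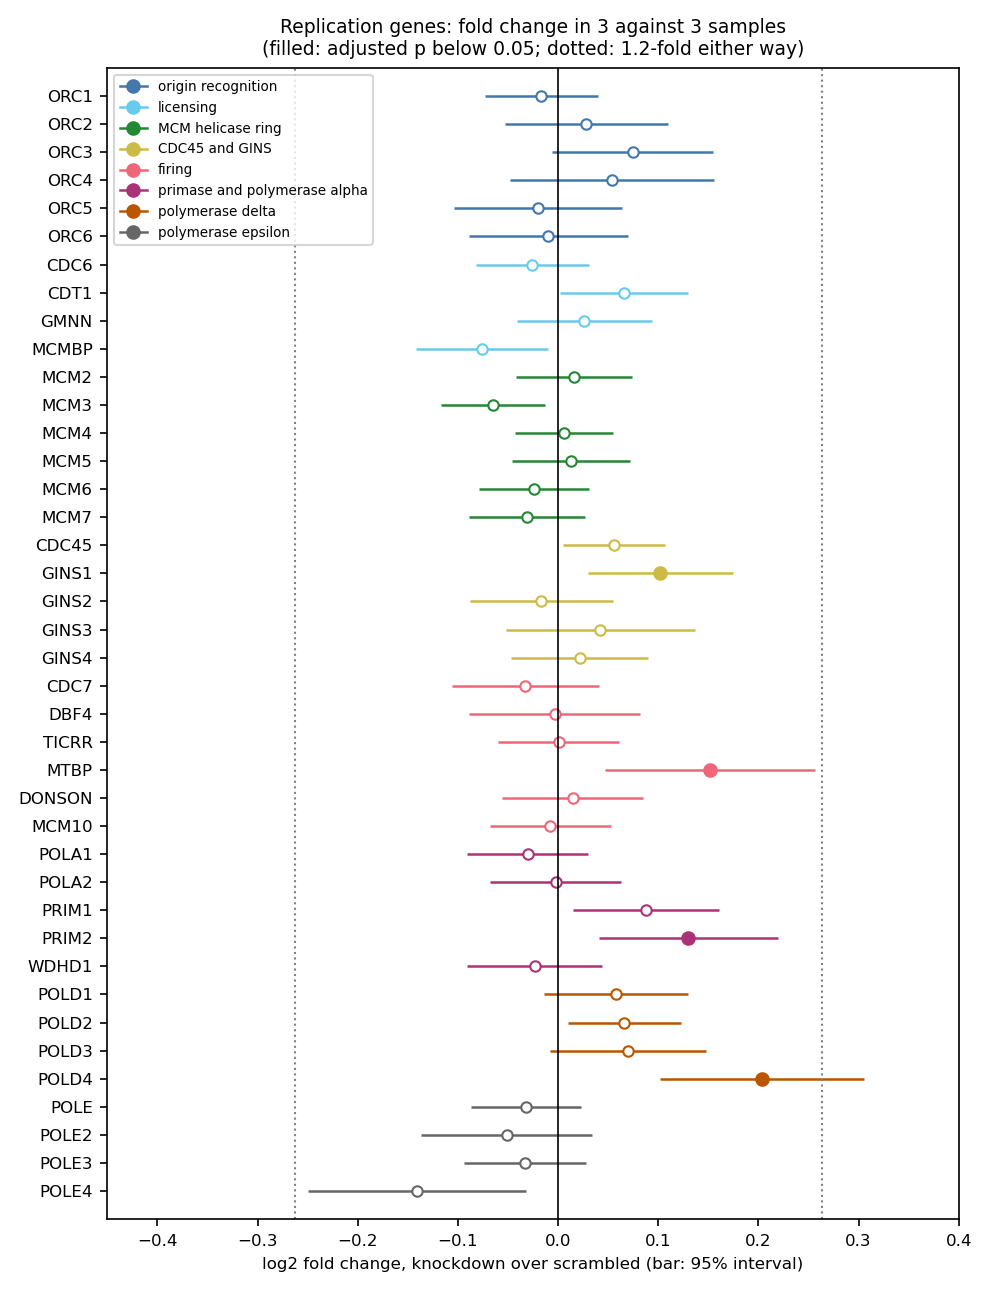
Log2 fold change of each of the 40 genes, knockdown over scrambled, with its 95% interval, coloured by role; filled points mark an adjusted p below 0.05 and dotted lines a 1.2-fold change either way. The 4 filled points lie to the right of 0, POLD4 is the only gene whose interval crosses a dotted line, and the polymerase epsilon genes all lie to the left of 0.

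POLD4 encodes the smallest subunit of polymerase delta, a protein that is degraded after DNA damage. Its gene occupies chromosome 11 from 67350777 to 67356972, minus strand (GRCh38, GENCODE 29). It had 15.8, 15.2 and 14.4 CPM in the scrambled samples and 18.1, 17.2 and 17.0 CPM in the knockdown samples. Every knockdown sample was above every scrambled one. The mean went from 15.1 ± 0.658 to 17.4 ± 0.572 CPM (SD, n = 3), a log2 fold change of 0.20 (SE 0.049, adjusted p = 0.00535, edgeR). It was the member called most often: 17 of 18 alternative analyses raised it, and with only the first technical library of each replicate its log2 fold change was 0.17 and its adjusted p 0.127. The log2 fold change was 0.21 with knockdown libraries 3_2 and 3_3 left out. GENCODE places 650 exon bases of POLD4 within AP003419.1 on the same strand, so reads of the pair may not be separable.

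GINS1 encodes a subunit of the GINS tetramer of the CMG helicase and lies on the plus strand of chromosome 20, from 25407727 to 25452628. Its scrambled samples had 45.1, 46.3 and 45.3 CPM and its knockdown samples 47.9, 50.6 and 48.4 CPM. The groups did not overlap, and the log2 fold change was 0.10 (SE 0.035, adjusted p = 0.0440, edgeR). This call sat close to the threshold. The adjusted p was 0.172, 0.0938 and 0.142 without scrambled replicate 1, 2 or 3 and 0.226 without knockdown replicate 2. It was 0.0632 in DESeq2, 0.0507 with RLE factors and 0.0567 with no count filter in edgeR. With the first technical library alone the log2 fold change was 0.0018 and the adjusted p 0.987.

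PRIM2 encodes the large subunit of primase, the enzyme that starts each new DNA strand with RNA. It lies on the plus strand of chromosome 6, from 57314805 to 57646849. The scrambled samples had 45.9, 46.0 and 51.8 CPM and the knockdown samples 51.7, 50.8 and 54.6 CPM. Here the groups overlapped, because scrambled replicate 3 lay above knockdown replicates 1 and 2. All 3 libraries of that scrambled replicate were high, from 51.2 to 52.9 CPM. The log2 fold change was 0.13 (SE 0.043, adjusted p = 0.0369, edgeR). It was 0.19 without scrambled replicate 3, and the call was lost without scrambled replicate 1 (adjusted p = 0.218), scrambled replicate 2 (0.210) or knockdown replicate 3 (0.0875), and with the first technical library alone (0.0942). RefSeq lists a pseudogene, PRIM2BP, on the same chromosome that the count table does not hold, so the PRIM2 counts may include or lack reads shared with it.

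MTBP, the partner with which TICRR prepares CDC45 loading, was the lowest member. Its samples held 14.1, 14.2 and 15.1 CPM in the scrambled group and 15.8, 15.5 and 16.9 CPM in the knockdown group. All 3 knockdown samples were above the scrambled range. The log2 fold change was 0.15 (SE 0.051, adjusted p = 0.0395, edgeR), and it was 0.12 with an adjusted p of 0.0584 when knockdown libraries 3_2 and 3_3 were left out. Leaving out scrambled replicate 1 or 2, or knockdown replicate 1 or 3, also ended the call (adjusted p = 0.165, 0.153, 0.0558 and 0.0766). So did DESeq2 (adjusted p = 0.0739) and the first technical library alone (0.383). MTBP shares 297 exon bases with SNTB1 on the opposite strand.

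**Figure D2:**
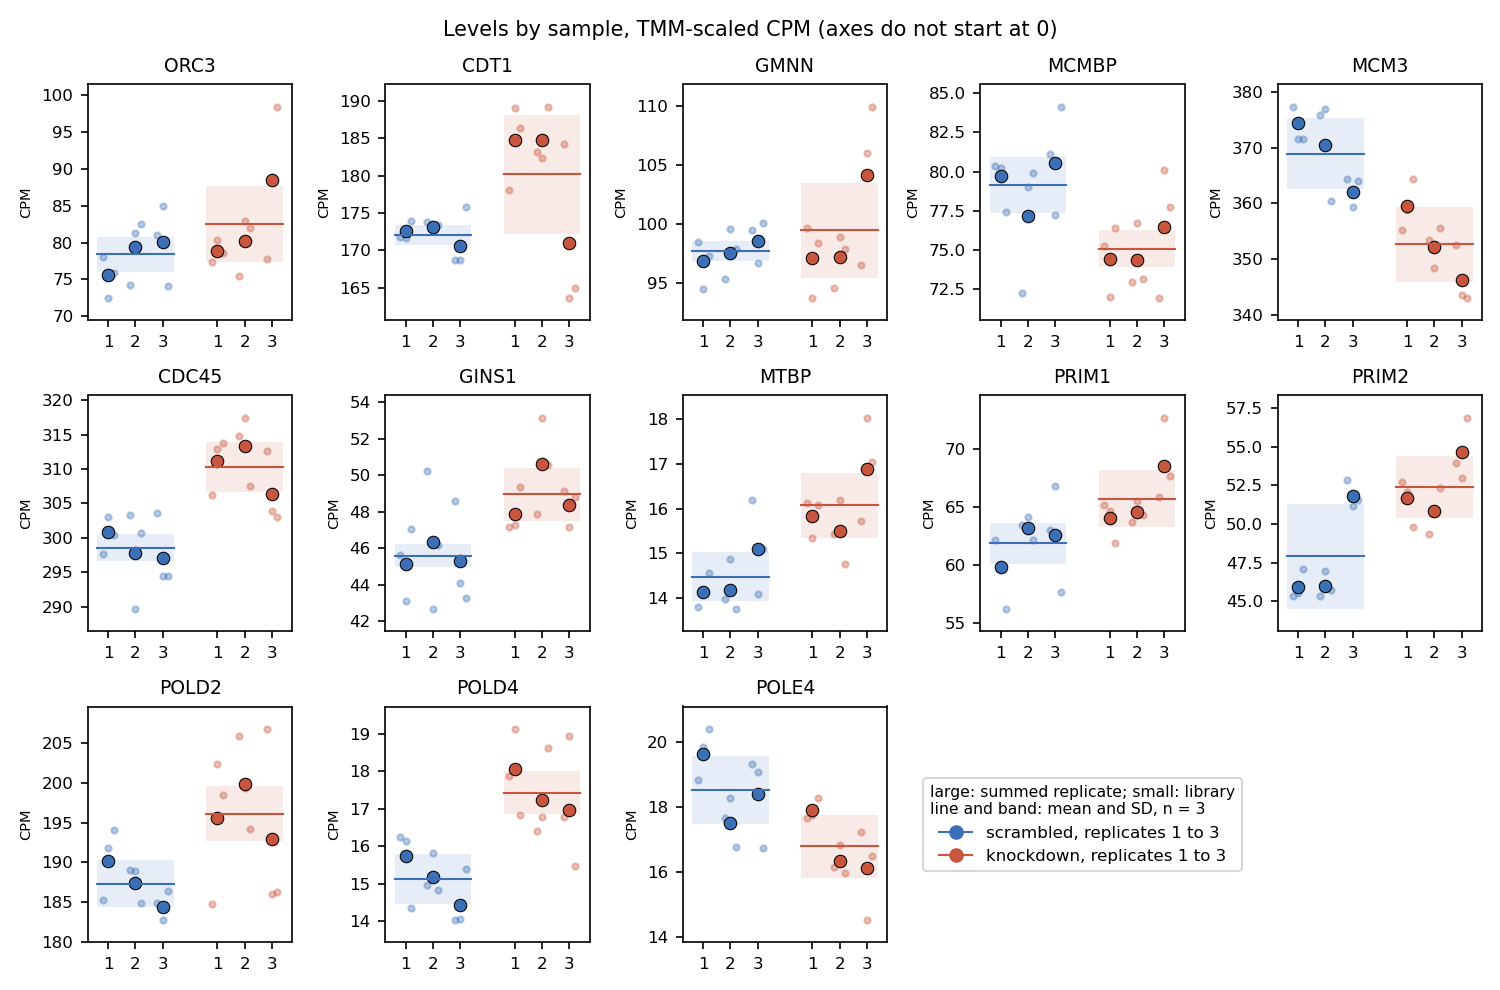
CPM of 13 genes (vertical axes, which do not start at 0) in scrambled (blue) and knockdown (red) samples; large points are the 3 summed replicates of a group, small points their technical libraries, and lines and bands the mean and SD. POLD4, GINS1, MTBP, CDC45, PRIM1 and POLD2 show summed knockdown points wholly above the scrambled ones, MCM3 and MCMBP wholly below, and in CDT1 knockdown replicate 3 lies apart from replicates 1 and 2.

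Promoter sequence is shown for the raised genes that RefSeq's table holds, and beside them for MCM3, POLE4 and CDT1, whose values lay lower or split by replicate. Each line gives the 250 bases before the start that RefSeq (GRCh38.p14) lists, 5′ to 3′ on the gene's strand. RefSeq's start can differ from the end of the GENCODE gene. The windows of POLD4 and CDT1 lie inside the GENCODE spans of those genes, and those of MCM3 and POLE4 partly so. Capitals mark CCAAT boxes (CCAAT or ATTGG) and E2F sites (TTTCCCGC, TTTGGCGC, TTTCGCGC or TTTGCCGC, or their reverse complements). Each is a match of letters, not a measured site.
POLD4, chr11:67353597-67353846, minus strand: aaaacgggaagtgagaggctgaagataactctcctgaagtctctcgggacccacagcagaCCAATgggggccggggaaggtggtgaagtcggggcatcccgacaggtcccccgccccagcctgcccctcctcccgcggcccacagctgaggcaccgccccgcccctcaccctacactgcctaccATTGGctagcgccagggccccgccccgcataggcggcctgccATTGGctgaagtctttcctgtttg
GINS1, chr20:25407423-25407672, plus strand: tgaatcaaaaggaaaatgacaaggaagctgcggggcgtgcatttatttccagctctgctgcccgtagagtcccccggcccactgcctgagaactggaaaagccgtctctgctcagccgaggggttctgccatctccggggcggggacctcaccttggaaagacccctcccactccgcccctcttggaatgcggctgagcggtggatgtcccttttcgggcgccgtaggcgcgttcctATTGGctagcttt
PRIM2, chr6:57314555-57314804, plus strand: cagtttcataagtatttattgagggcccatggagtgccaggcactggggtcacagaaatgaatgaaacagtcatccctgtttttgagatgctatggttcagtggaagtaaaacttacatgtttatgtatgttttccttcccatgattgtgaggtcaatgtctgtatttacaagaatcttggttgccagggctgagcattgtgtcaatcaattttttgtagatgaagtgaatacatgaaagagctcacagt
MCM3, chr6:52284743-52284992, minus strand: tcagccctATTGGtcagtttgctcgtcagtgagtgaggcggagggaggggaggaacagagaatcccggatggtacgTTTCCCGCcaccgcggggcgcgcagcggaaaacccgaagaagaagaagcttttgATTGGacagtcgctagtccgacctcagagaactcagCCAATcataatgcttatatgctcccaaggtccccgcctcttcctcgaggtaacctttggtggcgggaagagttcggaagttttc
POLE4, chr2:74958393-74958642, plus strand: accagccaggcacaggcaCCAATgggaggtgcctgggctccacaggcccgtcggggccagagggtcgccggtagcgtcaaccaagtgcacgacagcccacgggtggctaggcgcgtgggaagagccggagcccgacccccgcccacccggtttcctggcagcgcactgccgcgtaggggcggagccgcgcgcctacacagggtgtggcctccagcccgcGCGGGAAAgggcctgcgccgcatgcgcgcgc
CDT1, chr16:88803539-88803788, plus strand: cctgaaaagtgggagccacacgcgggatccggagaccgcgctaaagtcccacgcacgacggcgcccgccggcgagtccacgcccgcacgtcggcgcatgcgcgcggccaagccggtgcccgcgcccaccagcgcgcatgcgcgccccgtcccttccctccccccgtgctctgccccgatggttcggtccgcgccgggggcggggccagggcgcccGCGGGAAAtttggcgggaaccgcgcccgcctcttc

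No E2F match lay in the windows of POLD4, GINS1 or PRIM2. MCM3 had one that begins 174 bases before the start, POLE4 one at 31 bases and CDT1 one at 35 bases. POLD4 had 3 CCAAT boxes, at 190, 66 and 24 bases, and GINS1 had 1, at 13 bases. PRIM2 had no match to any motif searched. RefSeq's table held a window for 34 of the 40 members. Of these, 10 (29.4%) held an E2F match, beside 2.78% of all 27326 promoters in the table. CCAAT boxes were in 18 of the 34 (52.9%) and in 33.0% of all. The GC box GGGCGG was in 22 (64.7%) and 42.2%, and the letters TTTGAA, the core of the cell-cycle homology region, were in 0 and 13.6%. All searches covered both strands, and no motif's letters contain another's. The members without a window were MCM4, MCM5, GINS4, MTBP, DONSON and POLD3. The E2F matches lay in CDT1, GINS2, MCM3, MCM6, MCM7, ORC3, POLA1, POLA2, POLE and POLE4. MCMBP and CDC6, whose knockdown samples all lay lower, had none. The printed genes were chosen with their values in view, and a link between matches and fold changes was not tested.

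Among the 6 ORC genes, which mark origins through the cell cycle, none passed the test. Log2 fold changes ran from -0.02 to 0.07, with 3 above 0 and 3 below. ORC3, the one with the smallest p, had 75.6, 79.4 and 80.1 CPM in the scrambled and 78.9, 80.2 and 88.5 CPM in the knockdown samples. The groups overlapped and knockdown replicate 3 was the highest sample (log2 fold change 0.07, SE 0.039, adjusted p = 0.200, edgeR). The log2 fold change of ORC3 was 0.02 when knockdown libraries 3_2 and 3_3 were left out. With GC correction ORC3 passed the test, at 0.06 with an adjusted p of 0.0490. ORC1, the subunit that is degraded and made again in each cycle, had 166 ± 2.45 CPM in scrambled and 164 ± 1.42 CPM in knockdown samples (SD, n = 3).

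Of the 4 licensing genes, none passed the test either. CDT1, which carries the MCM ring to ORC, had 173, 173 and 171 CPM in the scrambled samples and 185, 185 and 171 CPM in the knockdown samples. Knockdown replicates 1 and 2 lay above the scrambled range and replicate 3 within it (log2 fold change 0.07, SE 0.031, adjusted p = 0.145, edgeR). Within that replicate, library 3_1 had 184 CPM, and libraries 3_2 and 3_3 had 164 and 165 CPM. Without the latter pair the log2 fold change was 0.10 and the adjusted p 9.68e-07, and with GC correction they were 0.03 and 0.117.

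GMNN, the inhibitor of CDT1, had 96.9, 97.5 and 98.5 CPM in scrambled and 97.1, 97.1 and 104 CPM in knockdown samples. The groups overlapped (log2 fold change 0.03, SE 0.033, adjusted p = 0.629, edgeR). Counts of GMNN per count of CDT1, a ratio that needs no scaling between libraries, were 0.561, 0.563 and 0.578 in the scrambled samples. In knockdown samples they were 0.525, 0.526 and 0.609, so that replicates 1 and 2 lay below the scrambled range and replicate 3 above it. The log2 difference was -0.04 (two-sided exact permutation test, n = 3 per group, p = 0.6, where 0.1 is the smallest value possible). Without knockdown libraries 3_2 and 3_3 all knockdown ratios were lower, with a log2 difference of -0.11 and p = 0.1 in the same exact test.

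MCMBP, which binds and stabilises newly made MCM subunits, had 79.7, 77.1 and 80.6 CPM in the scrambled and 74.4, 74.4 and 76.5 CPM in the knockdown samples. All knockdown samples were lower, and the log2 fold change of -0.08 (SE 0.032) had an adjusted p of 0.101 in edgeR. Leaving out knockdown libraries 3_2 and 3_3 gave -0.10 and an adjusted p of 0.000404. CDC6, the ATPase that completes the loading platform, gave 142 CPM in each scrambled and 139 CPM in each knockdown sample, a log2 fold change of -0.03 (SE 0.027, adjusted p = 0.572, edgeR).

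The MCM ring genes had scrambled means of 226 to 579 CPM, and none of the 6 passed the test. MCM7, MCM4 and MCM3 had the highest scrambled means of all members. POLE (340 CPM) and CDC45 (299 CPM) lay above MCM2, MCM5 and MCM6. MCM3 had 374, 370 and 362 CPM in the scrambled and 360, 352 and 346 CPM in the knockdown samples. The highest knockdown sample lay just under the lowest scrambled one (log2 fold change -0.06, SE 0.025, adjusted p = 0.0770, edgeR). MCM3 fell by the same test when knockdown libraries 3_2 and 3_3 were left out (log2 fold change -0.06, adjusted p = 0.0013) and with GC correction (-0.06, adjusted p = 0.00192). The other 5 ring subunits had log2 fold changes from -0.03 for MCM7 to 0.02 for MCM2. MCM4 stood at 510 ± 1.02 and 512 ± 10.6 CPM (SD, n = 3).

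CDC45 joins the ring when the helicase is activated. It had 301, 298 and 297 CPM in the scrambled and 311, 313 and 306 CPM in the knockdown samples. The groups did not overlap, yet the log2 fold change of 0.06 (SE 0.024) had an adjusted p of 0.122 in edgeR. Its adjusted p was 0.000392 with GC correction and 0.000246 once knockdown libraries 3_2 and 3_3 were left out, at a log2 fold change of 0.06 in each. GINS2, GINS3 and GINS4, the partners of GINS1 in the tetramer, had log2 fold changes of -0.02, 0.04 and 0.02 and overlapping groups.

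MTBP apart, the firing genes were flat. CDC7 and DBF4, the kinase and its activator, had log2 fold changes of -0.03 and -0.00, and TICRR, DONSON and MCM10 lay between -0.01 and 0.01. Leaving out knockdown libraries 3_2 and 3_3 gave CDC7 a log2 fold change of -0.07 (adjusted p = 0.0198, edgeR) and DBF4 one of -0.06 (adjusted p = 0.0405). DBF4 in knockdown replicate 3 was 0.18 above the mean log2 CPM of knockdown replicates 1 and 2.

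PRIM1, the catalytic subunit of primase, had 59.8, 63.1 and 62.5 CPM in the scrambled and 64.1, 64.5 and 68.5 CPM in the knockdown samples. The groups did not overlap (log2 fold change 0.09, SE 0.035, adjusted p = 0.0874, edgeR). These were 0.07 and 0.0119 with GC correction, and 0.06 and 0.0465 without knockdown libraries 3_2 and 3_3. PRIM1 shares 362 exon bases with AC117378.1 on the same strand. POLA1 and POLA2, the catalytic and second subunits of polymerase alpha, had log2 fold changes of -0.03 and -0.00. WDHD1, which ties that polymerase to the helicase, had one of -0.02.

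All 4 polymerase delta genes lay above 0. POLD2, a subunit that bridges the catalytic one to the others, had 190, 187 and 184 CPM in the scrambled and 196, 200 and 193 CPM in the knockdown samples. Every knockdown sample was higher (log2 fold change 0.07, SE 0.027, adjusted p = 0.0963, edgeR). They were 0.09 and 7.36e-06 with knockdown libraries 3_2 and 3_3 left out, and 0.05 and 0.0211 with GC correction. POLD1, the catalytic subunit, had 238, 238 and 236 CPM in the scrambled and 253, 260 and 229 CPM in the knockdown samples. Knockdown replicate 3 was the lowest of the 6 samples (log2 fold change 0.06, adjusted p = 0.268, edgeR). Its libraries had 249, 224 and 214 CPM, and without the latter pair the log2 fold change of POLD1 was 0.10 with an adjusted p of 1.46e-07. With GC correction these were 0.02 and 0.248. POLD3, a subunit that contacts the clamp, had a log2 fold change of 0.07 (adjusted p = 0.212, edgeR). POLD1 shares 426 exon bases with AC020909.1 on the same strand, and RefSeq lists a pseudogene of POLD2.

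All 4 polymerase epsilon genes lay below 0, and none passed the test. POLE4, a small histone-fold subunit, had 19.6, 17.5 and 18.4 CPM in the scrambled and 17.9, 16.3 and 16.1 CPM in the knockdown samples. The groups overlapped between the highest knockdown and the lowest scrambled sample (log2 fold change -0.14, SE 0.052, adjusted p = 0.0651, edgeR). With GC correction the log2 fold change was -0.13 and the adjusted p 0.0235, and they were -0.11 and 0.0553 when knockdown libraries 3_2 and 3_3 were left out. POLE, the catalytic subunit, POLE2, its second subunit, and POLE3, the histone-fold partner of POLE4, had log2 fold changes of -0.03, -0.05 and -0.03. RefSeq lists a pseudogene of POLE4, with which reads may be shared.

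Set side by side, the 4 polymerase delta genes had a median log2 fold change of 0.07 and the 4 polymerase epsilon genes one of -0.04. In each of the 18 alternative analyses all 4 delta genes were above 0 and all 4 epsilon genes below 0, with medians from 0.053 to 0.11 and from -0.08 to -0.03. These analyses reuse the same samples and the roles were compared with results in view, so the split is a description. Summed polymerase delta levels were 476, 473 and 465 CPM in the scrambled and 500, 510 and 472 CPM in the knockdown samples. Knockdown replicate 3 lay within the scrambled range and the other replicates above it. Summed polymerase epsilon levels were 516, 501 and 498 CPM in the scrambled and 495, 496 and 485 CPM in the knockdown samples, where all knockdown sums lay lower.

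Levels were compared between genes per kilobase of main transcript. On this scale MCM7 was the highest in scrambled cells, at 196 ± 3.4 CPM per kb (SD, n = 3), followed by CDC45 at 143, MCM4 at 122 and MCM3 at 115 CPM per kb. MCM2 and MCM5, at 64.0 ± 0.91 and 64.0 ± 0.42, did not differ beyond their spread, and neither did CDT1 at 53.1 ± 0.41, POLE3 at 53.0 ± 0.99 and ORC1 at 52.5 ± 0.78. The lowest were POLD3 at 8.21, ORC4 at 7.23 and MTBP at 4.73 CPM per kb. Within complexes whose subunits assemble together, levels were far from equal: POLD2 was at 86.8, POLD1 at 69.0, POLD4 at 16.5 and POLD3 at 8.21 CPM per kb. The ORC genes ran from 7.23 for ORC4 to 52.5 for ORC1, with ORC3 at 31.3 CPM per kb. In all 8 roles the order of the genes was the same in knockdown cells. The scale uses 1 transcript per gene and counts over all exons, so differences of a few percent between genes should not be read. Larger differences can also depend on the transcript chosen, which was not varied, and on exons shared with other genes, as in POLD4.

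**Figure D3:**
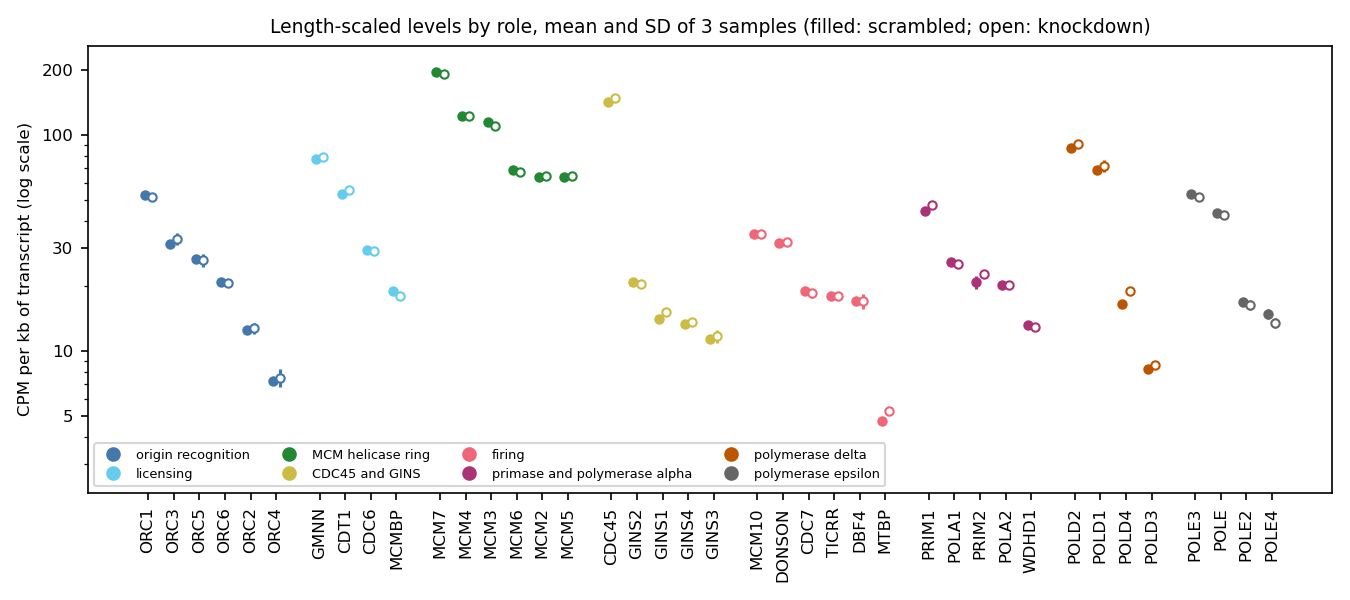
Level of each gene per kilobase of its main transcript (CPM per kb, log axis) in scrambled and knockdown cells, means of 3 samples with SD, ordered by role. MCM7 at 196 CPM per kb and MTBP at 4.73 CPM per kb mark the ends of the scrambled range, and the paired points of each gene lie close together on this axis.

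The deviation of knockdown replicate 3 followed the GC content of the transcripts. Among the 14 members of lowest GC content (38.0 to 43.1%), all 14 were higher in that replicate than in the mean of knockdown replicates 1 and 2, with a median log2 difference of 0.11. Among the 13 of highest GC content (51.6 to 65.3%), 0 were higher and the median was -0.06. The 13 in between (44.3 to 51.2%) had a median of 0.02, with 7 higher. In scrambled replicate 3 the medians were 0.02, -0.01 and -0.03 from the lowest to the highest GC content. In the same order, 12, 4 and 2 members were higher there than in the mean of scrambled replicates 1 and 2. By library, the median of the high-GC members minus that of the low-GC members was -0.16 in knockdown library 3_2 and -0.23 in library 3_3. It was 0.03 in library 3_1 and between -0.08 and 0.09 in the others.

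**Figure D4:**
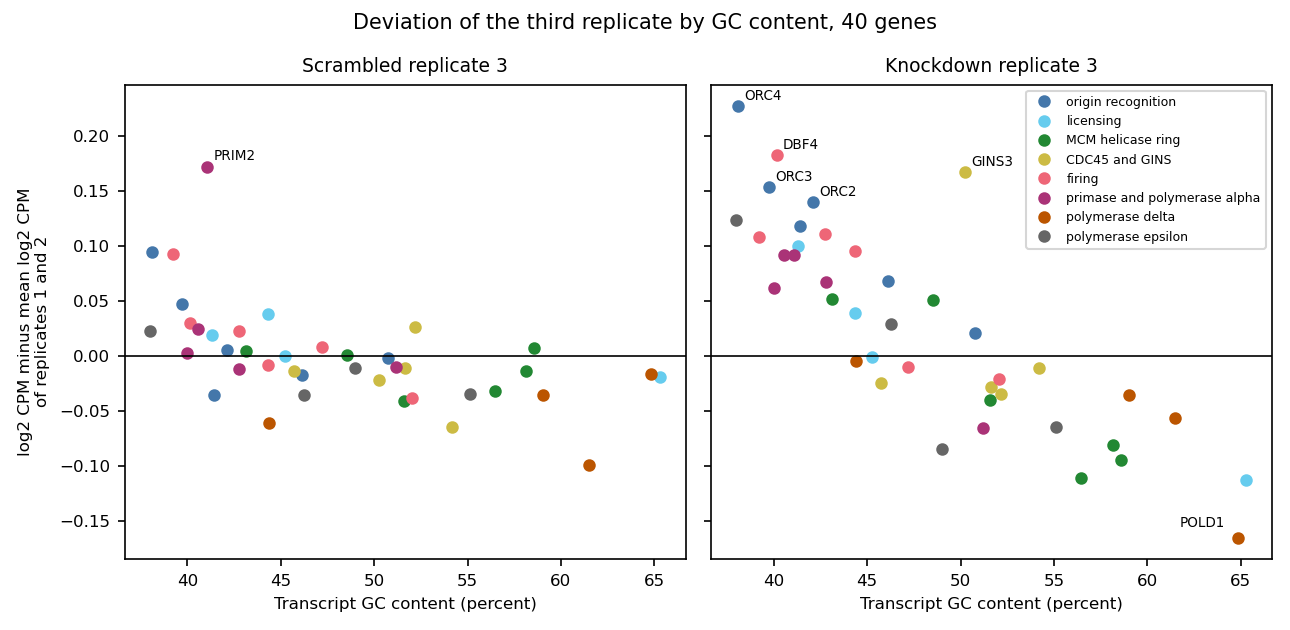
Deviation of replicate 3 from the mean log2 CPM of replicates 1 and 2 (vertical axis, log2) against transcript GC content in percent, for the 40 genes in scrambled (left) and knockdown (right) samples, coloured by role. In the knockdown panel the 14 genes of lowest GC content all lie above 0 and the 13 of highest GC content all below.

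With a correction for GC content, 8 of the 40 genes (20.0%) rose and 4 (10.0%) fell, beside 14.9% and 16.9% of all genes tested. Raised were ORC3, CDC45, GINS1, MTBP, PRIM1, PRIM2, POLD2 and POLD4, and lowered were MCMBP, MCM3, MCM7 and POLE4. Without knockdown libraries 3_2 and 3_3, 8 (20.0%) rose and 6 (15.0%) fell, beside 16.5% and 15.5% of all genes. Raised there were CDT1, CDC45, GINS1, PRIM1, PRIM2, POLD1, POLD2 and POLD4, and lowered were MCMBP, MCM3, CDC7, DBF4, POLA1 and POLE2. CDC45, GINS1, PRIM1, PRIM2, POLD2 and POLD4 rose and MCMBP and MCM3 fell in both analyses. The share of all genes called in the same direction in both was not counted, so this list only describes the members. The changes stayed small: over the 18 alternatives the log2 fold changes of the 40 genes lay between -0.19 for POLE4 and 0.23 for POLD4. No alternative called 21 of the members, among them ORC1, CDC6, GMNN, MCM2, MCM4 and MCM6. How many of all genes tested were never called was not counted, so the 21 cannot be set against them.

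**Figure D5:**
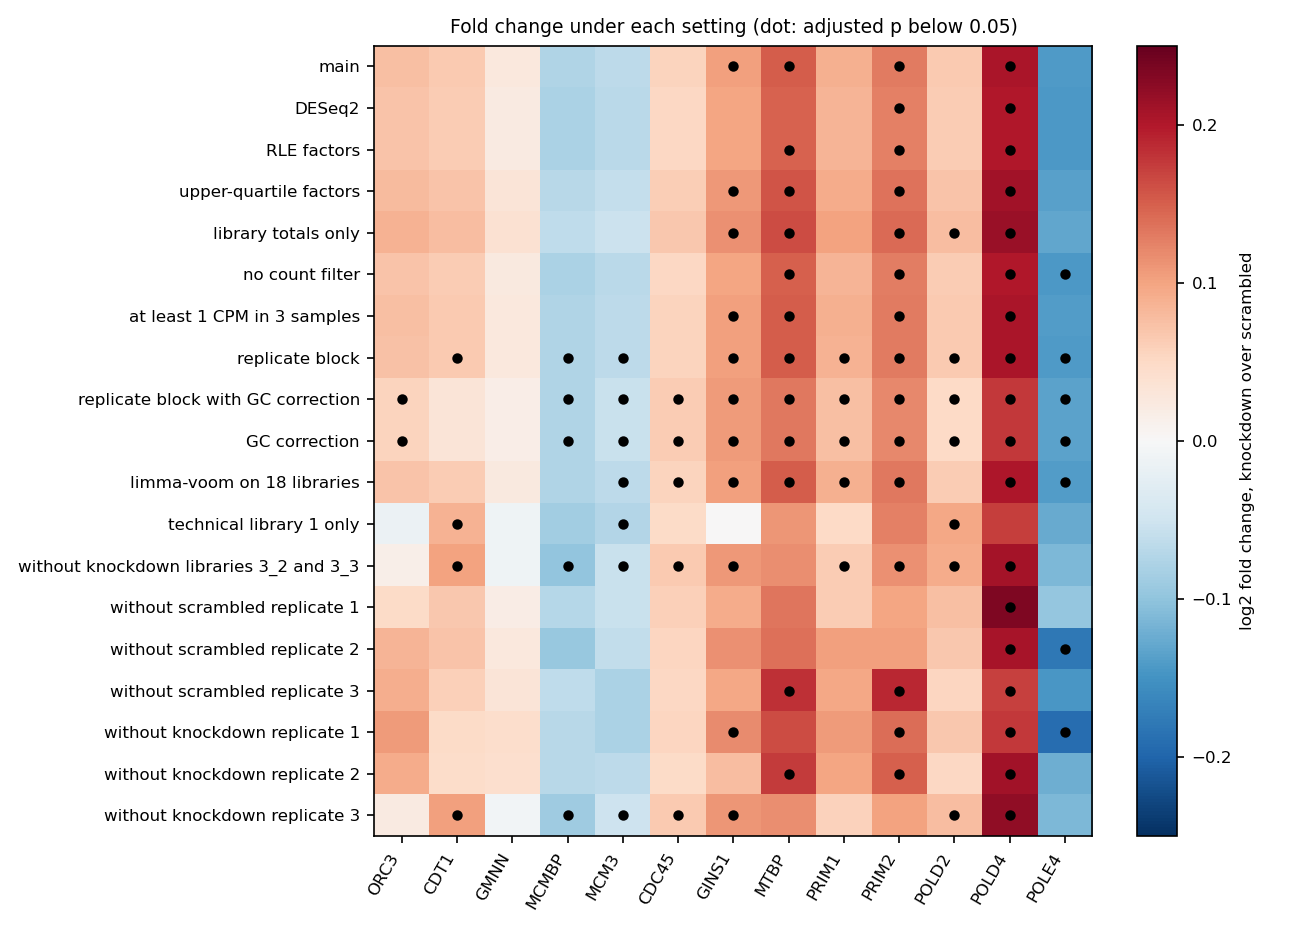
Log2 fold change (colour) of 13 genes in the main analysis and 18 alternatives, with a dot where the adjusted p is below 0.05. POLD4 carries a dot in the main analysis and in 17 alternatives, MCM3 in 7 alternatives and CDC45 in 5.

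Genes that work beside these at the fork were read from 5 lists. Their counts stand beside the 11.1% of all genes that rose and the 7.49% that fell. Of 19 genes for the sliding clamp, its loaders and Okazaki fragment processing, 2 rose and 0 fell, with a median log2 fold change of -0.0047. RNASEH2B, a subunit of the enzyme that removes ribonucleotides from DNA, had 32.1, 32.5 and 32.8 CPM in the scrambled and 36.0, 36.4 and 37.6 CPM in the knockdown samples (0.18, adjusted p = 0.00159, edgeR). LIG1, the ligase that joins Okazaki fragments, had 88.0, 86.1 and 84.5 CPM and 96.8, 98.2 and 89.0 CPM (0.14, adjusted p = 0.0101). Both genes had groups that did not overlap.

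Of 18 genes for fork protection and origin regulation, 1 rose and 0 fell. It was TOPBP1, the scaffold that works with TICRR in origin firing and activates the ATR kinase. TOPBP1 had 112 CPM in each scrambled sample and 128, 130 and 138 CPM in the knockdown samples, a log2 fold change of 0.24 (SE 0.031, adjusted p = 1.06e-05, edgeR). This change was larger than that of any of the 40 members.

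Of 12 genes for CDT1 turnover and helicase unloading, 0 rose and 1 fell. FBXO31, a ubiquitin ligase subunit that targets CDT1, had 46.6, 45.3 and 45.4 CPM in the scrambled and 42.5, 43.7 and 38.5 CPM in the knockdown samples (log2 fold change -0.14, adjusted p = 0.0206, edgeR). The groups did not overlap.

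Of 11 genes for nucleotide supply, 2 rose and 0 fell. SAMHD1, which breaks down deoxynucleotides, had 18.6, 19.0 and 20.1 CPM in the scrambled and 22.8, 22.0 and 23.0 CPM in the knockdown samples (log2 fold change 0.23, adjusted p = 0.000657, edgeR). Every knockdown sample of SAMHD1 was above every scrambled one.

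Of 11 genes for chromatin assembly behind the fork, none passed the test, and the smallest p belonged to TONSL (log2 fold change -0.09, adjusted p = 0.103, edgeR). With GC correction the 5 lists, in the order given, had 4, 3, 2, 3 and 1 genes raised and 2, 2, 2, 0 and 3 lowered, beside 14.9% and 16.9% of all genes. Without knockdown libraries 3_2 and 3_3 they had 3, 2, 1, 3 and 2 raised and 1, 1, 3, 0 and 2 lowered, beside 16.5% and 15.5% of all genes.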

How the data were processed

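Total RNA of 18 K562 libraries was sequenced. The submitters' processing notes name Trim Galore, STAR, featureCounts and GRCh38. Tool versions, the annotation used and the strand setting were not given in the sources used here, so reads of genes that overlap on opposite strands may be counted together. The authors deposited whole-number counts for each gene symbol, without normalization. Per the labels' protocols, the libraries were directional and depleted of ribosomal RNA.

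The 3 libraries that share the first number in the name were taken as technical libraries of a replicate, which the labels do not state, and summed. In limma-voom on single libraries, their consensus correlation was 0.076. Genes passing filterByExpr (15678) entered a robust quasi-likelihood fit in edgeR 4.0.16 under R 4.3.3, with TMM factors, and p-values were adjusted by Benjamini-Hochberg over all of them. Intervals and SEs came from the same fit. CPM used TMM-scaled library sizes. Lengths, GC content (96.4% of tested genes) and coordinates came from GENCODE 29, and promoters from RefSeq (GRCh38.p14). GMNN per CDT1 was tested by exact permutation. The procedure was tested on simulated counts.

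The members, the lists of other replication genes and the tests were chosen with earlier results of these data known. Values by sample are given for members called in the main analysis, for those called in the same direction both with GC correction and when knockdown libraries 3_2 and 3_3 were left out, for the smallest p of each role, and for CDT1 and GMNN. POLD1 and CDC6 are given by sample too, chosen after their values were seen. Of each list, up to 2 called genes are named, or the one of smallest p. One gene that this rule takes is not reported here.

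Alternatives were DESeq2 1.42.0, other scaling factors (RLE, upper quartile, library totals), other filters on low counts, a block for the replicate number, a lowess GC correction (span 0.3), both of these together, limma-voom (limma 3.58.1) on single libraries, the first technical library alone, and each replicate left out. Figures and tables were made with matplotlib 3.10.9, scipy 1.17.1, pandas 2.3.3 and numpy 2.4.6 in Python 3.11.15.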

Additional observations from a re-analysis of the deposited data

How the results depend on the processing

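Against 4 members raised and 0 lowered, DESeq2 raised 2, beside 8.9% of all genes. The replicate block raised 7 and lowered 3, beside 14.1% and 11.3% of all genes. GC correction and the block with GC correction each raised 8 and lowered 4. Of all genes, GC correction raised 14.9% and lowered 16.9%, and the block with GC correction 15.1% and 17.2%. Leaving out knockdown libraries 3_2 and 3_3 raised 8 and lowered 6, beside 16.5% and 15.5% of all genes. Testing without a count filter lowered 1, limma-voom on 18 libraries lowered 2 and the first technical library alone lowered 1. Of all genes, these lowered 5.74%, 10.3% and 6.04%. Leaving out each replicate gave 1 to 7 raised and 0 to 6 lowered, beside 7.09% to 15.6% and 3.92% to 14.3% of all genes. The highest of both came without knockdown replicate 3, and 1 was raised without scrambled replicate 1 or 2. Whether the replicate numbers pair the samples could not be decided, because the deviations of all pairs of samples correlated only weakly, from -0.11 to 0.087. Same-numbered samples correlated at 0.074, 0.0041 and 0.087, and the values of replicates 1 and 3 were the highest of all pairs. Scrambled replicate 2 correlated best with knockdown replicate 3 (0.022). The cause of the differences between analyses was not tested. Of the 234 values of 13 named members under alternatives, 4 reversed: ORC3 at -0.0148 with the first technical library alone, and GMNN at -0.0104 there, at -0.00996 when knockdown libraries 3_2 and 3_3 were left out, and from -0.0077 to 0.043 when single replicates were, the lowest without knockdown replicate 3. A further 42 passed the threshold that the main analysis missed and 20 no longer passed it. The GMNN to CDT1 difference stayed below 0, from -0.11 to -0.0038 when single replicates were left out, in a design that cannot reach 0.05. Members had 971 to 44594 counts per summed sample, so counting error limits POLD4, MTBP and POLE4 most.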
